A study of Mesocricetus auratus with 6 samples.

Results

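This account covers 9 genes of glutamine and arginine metabolism in the pregnant uterus of the Syrian golden hamster: GLUL, GLUD1, ASS1, ASL, ARG1, ARG2, ASNS, SLC7A1 and SLC1A5. They were read at every probe set (a group of short array probes aimed at 1 transcript) that the platform annotation assigned to one of these symbols, which gave 17 of the 22215 probe sets tested and 9 of 11963 genes; 0 further probe sets named a member among several genes. The genes were chosen because GLUL was lower and ASS1 higher at implantation sites in these same arrays, so the values of the 9 genes are given as a description, without p-values. Total RNA came from untreated uterus on day 5 of pregnancy, either from sites holding an implanting embryo (implantation sites, 3 arrays) or from the stretches between embryos (interimplantation sites, 3 arrays). All animals were pregnant and the labels give no age, strain or genotype. The sample titles call the 3 arrays of each group biological replicates. The design text speaks of 3 animals, but no label ties an array to an animal, so the spread between arrays may be in part technical. Whether arrays of different groups share an animal was not stated.

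Glutamine synthetase joins ammonia to glutamate and is the one enzyme that makes glutamine, while glutamate dehydrogenase links glutamate to the citric acid cycle. Argininosuccinate synthase and argininosuccinate lyase work in sequence to make arginine from citrulline and aspartate, and arginase splits arginine into urea and ornithine, the precursor of polyamines. Arginine is also the substrate of nitric oxide synthase, and both arginine and glutamine are abundant fuels and building blocks of the early conceptus and the growing uterus.

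Values are log2 RMA values, in which 1 unit is a doubling of probe set brightness, and all differences are implantation minus interimplantation site given with a standard error (SE) from limma. The array carries probes for human transcripts, so brightness depends on how well a hamster transcript matches them, and levels of different probe sets cannot be ranked against each other. A gene of the same symbol was annotated in the hamster genome (RefSeq, assembly BCM_Maur_2.0) for all 9 members. Probe set names ending in _s_at mark probes that can match several transcripts, and those ending in _x_at mark probes that can match unrelated ones. In bulk tissue, fewer cells of a type and less RNA per cell cannot be told apart.

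GLUL, glutamine synthetase, was lower at implantation sites at each of its 3 probe sets, but by very different amounts. At the brightest, 217202_s_at, implantation sites 1 to 3 read 6.13, 5.99 and 5.96 and interimplantation sites 1 to 3 read 6.87, 7.16 and 6.57. The groups did not overlap, and the interimplantation arrays were spread more widely than the implantation arrays. The means were 6.03 ± 0.09 and 6.87 ± 0.29 (SD, n = 3 each), a 1.79-fold lower level (log2 −0.84 ± 0.13 SE). This probe set was brighter than 95.8% of all probe sets.

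The other 2 GLUL probe sets were dimmer and differed less. At 200648_s_at the implantation arrays read 4.43, 4.36 and 4.37 and the interimplantation arrays 4.43, 4.77 and 4.47, a difference of −0.17 ± 0.09 SE. The groups there were separated by the third decimal only, between 4.428 at implantation site 1 and 4.430 at interimplantation site 1. At 215001_s_at the values were 3.23, 3.35 and 3.39 against 3.40, 3.63 and 3.61, a difference of −0.23 ± 0.09 SE. The differences of the 3 probe sets thus spanned 0.67, a span reached by 1.18% of the 4310 genes with several probe sets, whose median span was 0.14. That share is a description only, since GLUL was chosen for its fall and only 1759 of those genes have 3 or more probe sets. The size of the GLUL difference therefore depended on the probe set read: the mean of the 3 gave −0.41.

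**Figure D1:**
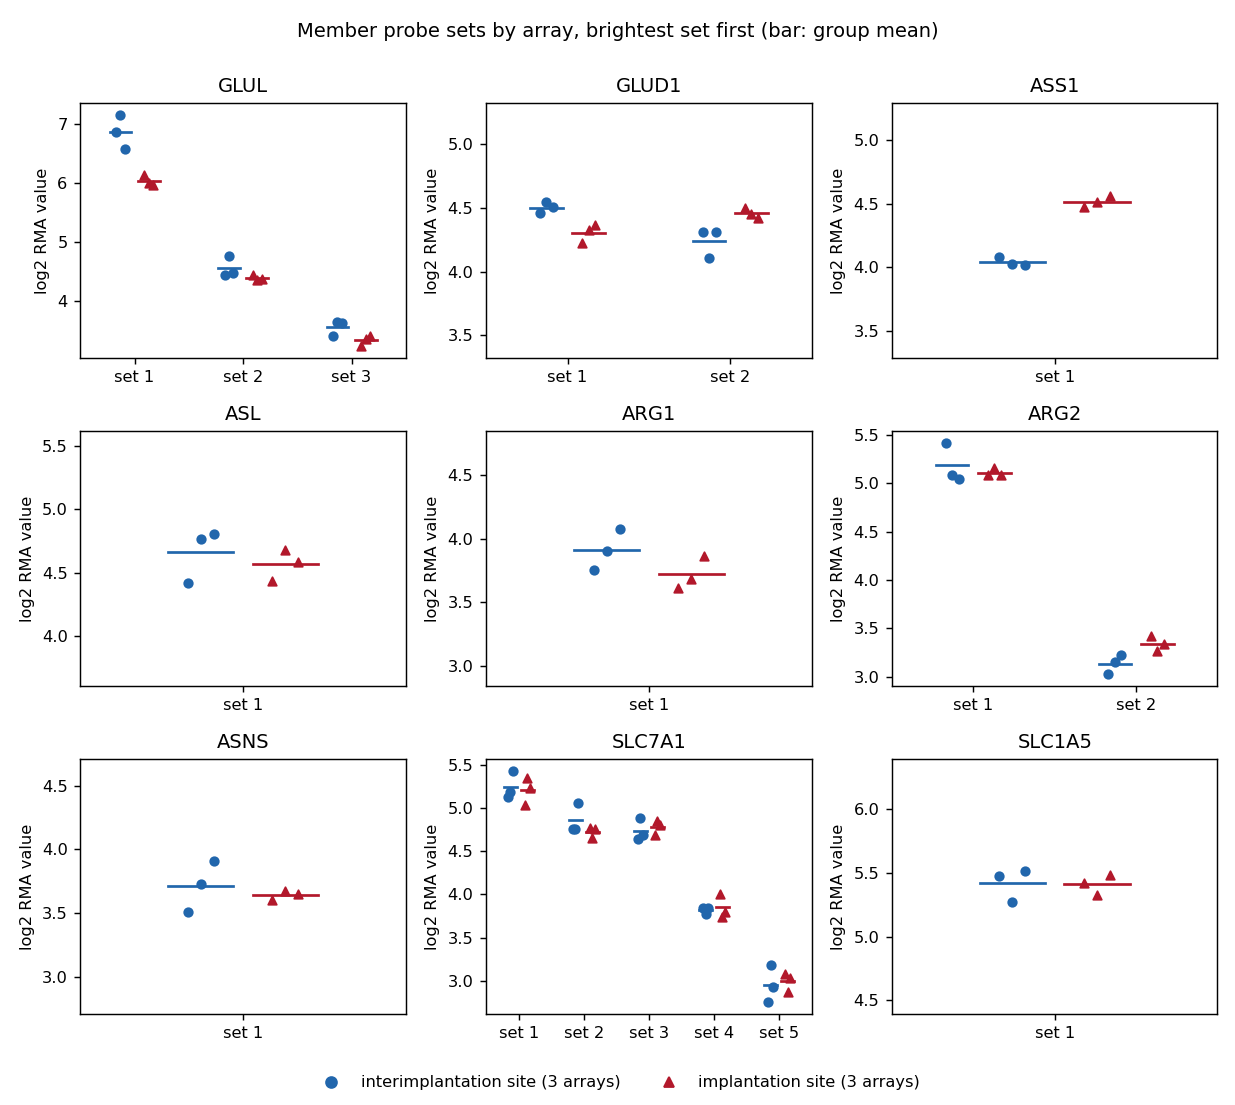
Log2 RMA values (vertical axes, each panel with its own range) of the 17 probe sets of the 9 genes; circles are the 3 interimplantation arrays, triangles the 3 implantation arrays and bars the group means, with the brightest probe set of a gene as set 1. The groups stand apart most at GLUL set 1 (means 6.87 and 6.03) and at ASS1 (4.04 and 4.52).

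GLUD1, glutamate dehydrogenase, which releases ammonia from glutamate, gave opposite readings at its 2 probe sets. At 200947_s_at the implantation arrays read 4.23, 4.33 and 4.36, all below the interimplantation arrays at 4.46, 4.54 and 4.50 (difference −0.20 ± 0.07 SE). At 200946_x_at they read 4.50, 4.45 and 4.42, all above the interimplantation arrays at 4.31, 4.10 and 4.31 (difference 0.22 ± 0.08 SE). Such a pair, 1 probe set fully higher and another fully lower, was found in 90 of the 4310 genes with several probe sets (2.09%). These data therefore give no single direction for GLUD1, and neither of its probe sets passed the threshold described next.

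ASS1, argininosuccinate synthase, was higher at implantation sites at its 1 probe set, 207076_s_at. The implantation arrays read 4.48, 4.51 and 4.56 and the interimplantation arrays 4.08, 4.03 and 4.02. Both groups were tight and lay far apart relative to their spread, with means of 4.52 ± 0.04 and 4.04 ± 0.03 (SD, n = 3 each). The difference was 0.47 ± 0.07 SE, or 1.39-fold. The probe set was of middling brightness, above 52.2% of all probe sets.

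ASL, argininosuccinate lyase, which takes the product of ASS1 to arginine, did not share this pattern. The implantation arrays read 4.43, 4.68 and 4.58 and the interimplantation arrays 4.42, 4.77 and 4.80. The groups overlapped and the difference was −0.10 ± 0.11 SE. The difference between these 2 steps of arginine synthesis was not itself tested, nor was the match of either probe set to its hamster transcript.

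The arginases showed small differences. ARG1, the cytosolic arginase of liver and some myeloid cells, read 3.61, 3.68 and 3.86 at implantation sites and 3.75, 3.91 and 4.08 at interimplantation sites. The groups overlapped (difference −0.19 ± 0.10 SE), and the probe set was dim, above 40.9% of all probe sets. ARG2, the mitochondrial arginase, read 5.09, 5.15 and 5.08 against 5.42, 5.09 and 5.05 at the brighter 203945_at. Interimplantation site 1 stood above the other 5 arrays there, and the difference was −0.08 ± 0.10 SE. At the dim 203946_s_at the values were 3.42, 3.27 and 3.34 against 3.03, 3.15 and 3.22, which did not overlap (difference 0.21 ± 0.08 SE), so ARG2 too had no single direction.

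ASNS, asparagine synthetase, which moves the amide nitrogen of glutamine onto aspartate, read 3.60, 3.67 and 3.65 at implantation sites and 3.51, 3.73 and 3.91 at interimplantation sites. The implantation arrays lay inside the range of the interimplantation arrays, and the difference was −0.07 ± 0.10 SE.

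The 2 transporters showed differences no larger than about their errors at nearly all probe sets. SLC1A5, a carrier that imports glutamine and other neutral amino acids, read 5.42, 5.33 and 5.48 against 5.47, 5.28 and 5.51, with a difference of −0.01 ± 0.09 SE. This bright probe set, above 80.6% of all, was the closest to 0 of the 17. SLC7A1, the carrier CAT1 for arginine and lysine, had 5 probe sets, with differences from −0.13 to 0.04. Its brightest, 212295_s_at, read 5.04, 5.35 and 5.23 against 5.13, 5.19 and 5.44 (difference −0.04 ± 0.10 SE). The groups overlapped at all 5, and the largest difference, at 212292_at (−0.13 ± 0.09 SE), came with a high interimplantation site 3 (5.07, against 4.76 in both other arrays of that group).

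**Figure D2:**
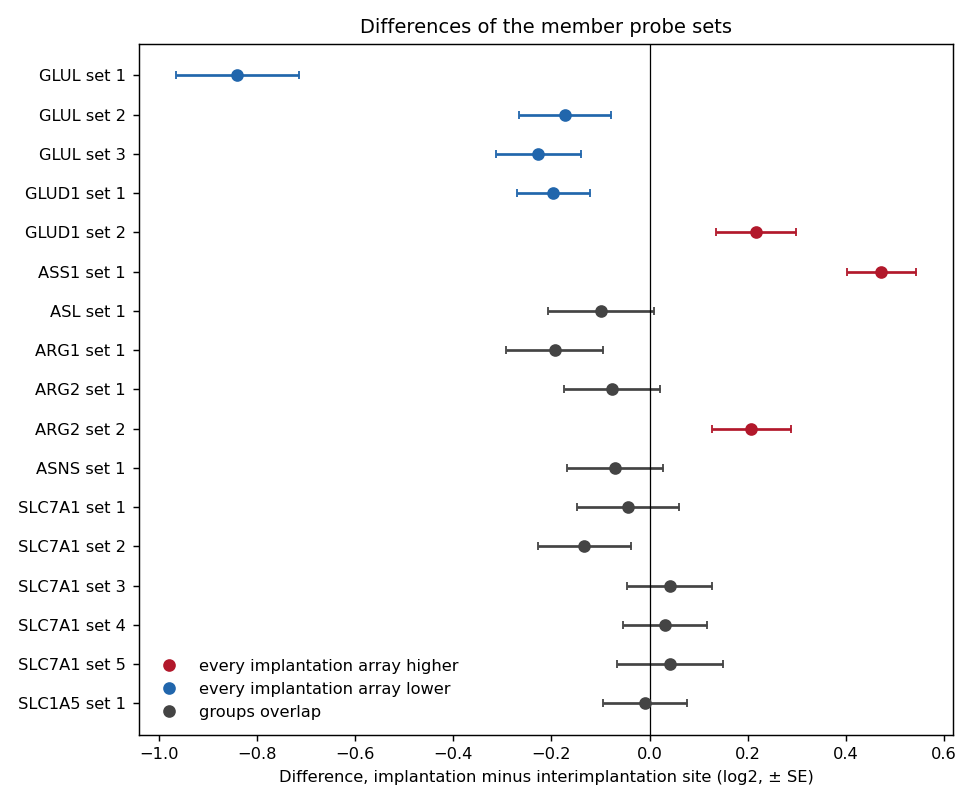
Difference between implantation and interimplantation sites (log2, horizontal axis) with its SE for each of the 17 probe sets, set 1 being the brightest of a gene. GLUL set 1 (−0.84) and ASS1 (0.47) lie farthest from 0, and the 2 probe sets of GLUD1 lie on opposite sides of it.

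Read at the brightest probe set of each gene, 1 of the 9 genes was higher (ASS1) and 1 lower (GLUL) past an adjusted p of 0.05 in limma's fit over 11963 genes, beside 1.24% of all genes. Among single probe sets the same 2 genes gave the 2 of 17 that passed, beside 1.06% of all probe sets. Of the 17 probe sets, 3 were higher in every implantation array and 4 lower in every one, beside 7.72% and 8.30% of all probe sets (16.0% in all). The genes were picked from this comparison, so these shares are given as a description only. The median difference over the 17 probe sets was −0.07, and over all probe sets it was −0.01.

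The difference of ASS1 held a narrow range under every setting in which it could be read, and that of GLUL a wider one. With single arrays left out, ASS1 lay between 0.45 and 0.49 and GLUL between −0.99 (without interimplantation site 3) and −0.69 (without interimplantation site 2). Neither gene has a probe set free of the _s_at ending, so neither could be read on probes of that stricter kind. GLUD1 turned from −0.20 to 0.15 without interimplantation site 2, because its other probe set then became the brighter one.

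**Figure D3:**
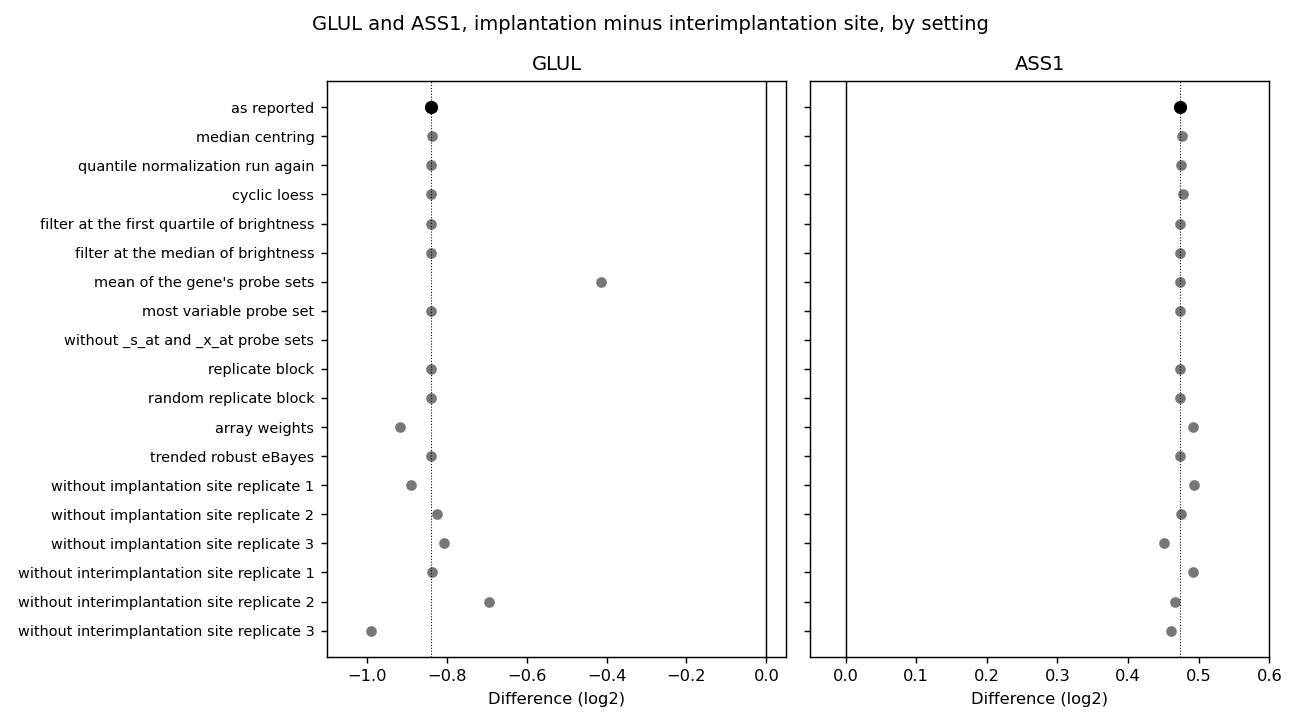
Difference of GLUL (left) and ASS1 (right) between implantation and interimplantation sites (log2, horizontal axes) as reported and under each other setting, 1 row per setting; an empty row has no probe set. GLUL moved to −0.41 with the mean of its probe sets, and ASS1 stayed between 0.45 and 0.49.

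The genes whose profiles over the 6 arrays lay nearest to these 2 were found by the root mean square difference of values centred on each gene's mean, among 7273 genes at or above the median brightness. Nearest to GLUL were ITM2B, a membrane protein (0.13), JAG1, a Notch ligand (0.15), and HSPB1, a small heat shock protein (0.15). Their differences were −0.82, −0.61 and −1.04 at the brightest probe set. ITM2B has 2 probe sets and JAG1 has 4, and their dimmer ones are not given here. Nearest to ASS1 were RUVBL2, an ATPase of chromatin complexes (0.049), CTF1, the cytokine cardiotrophin 1 (0.054), and ATIC, which carries out the last steps of purine synthesis (0.066). Their differences were 0.43, 0.38 and 0.52. These neighbours were found by their likeness to the chosen genes and have no test of their own here.

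Around the 9 genes, 8 lists of 151 other genes were examined, covering glutamine and glutamate enzymes, glutamine users, arginine and nitric oxide, aspartate and serine supply, amino acid carriers, the amino acid response, tRNA synthetases and amino acid sensing by mTORC1. Of these, 123 were measured. The lists were chosen with earlier results of these data known, which limits what their calls show. In limma's test, adjusted over all genes, 3 rose (CAD, KARS1 and RARS1) and 0 fell, beside 0.777% of all genes higher and 0.460% lower. By an unadjusted p under 0.05, 14 were higher and 6 lower, beside 5.68% and 5.22% of all genes, and 19 and 10 did not overlap between groups, beside 8.36% and 8.09%. These shares of all genes stand beside the counts of each list below as well. The median difference of the 123 genes was −0.0044 and that of all genes −0.0069. List genes named below that neither passed nor had the smallest p of their list were chosen after their values were seen.

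**Figure D4:**
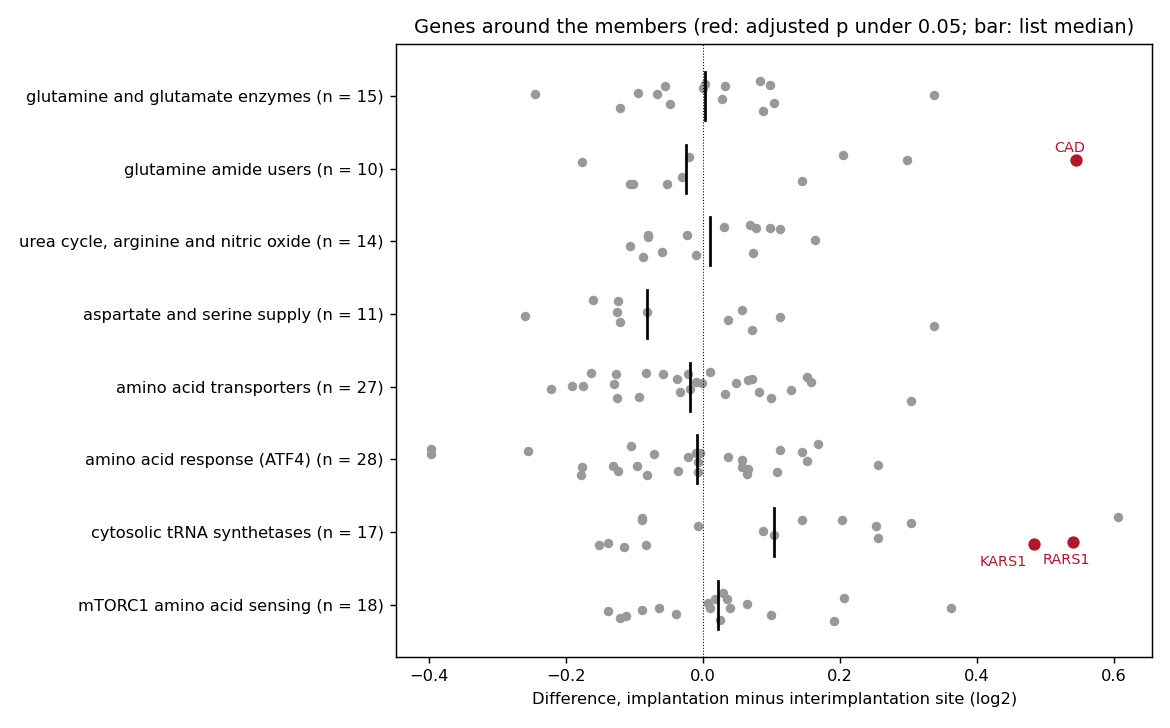
Difference between implantation and interimplantation sites (log2, horizontal axis) for each measured gene of the 8 lists, at its brightest probe set; red points passed an adjusted p of 0.05 and vertical bars are list medians. CAD (0.55) stands apart among glutamine users, and KARS1 (0.48) and RARS1 (0.54) passed among tRNA synthetases, a list whose median was 0.10.

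Among 15 measured enzymes that interconvert glutamine, glutamate, proline and GABA, 0 passed in limma's test, with 1 higher and 0 lower by an unadjusted p under 0.05, and the median difference was 0.0039. The higher one was GOT1, the cytosolic aspartate aminotransferase, which moves nitrogen between glutamate and aspartate. It read 4.85, 5.02 and 4.93 at implantation sites and 4.44, 4.65 and 4.70 at interimplantation sites, without overlap (difference 0.34 ± 0.09 SE, limma adjusted p = 0.106). Its mitochondrial counterpart GOT2 was at −0.12 ± 0.09 SE.

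Of 10 measured genes listed as users of the amide nitrogen of glutamine, CAD rose and 0 fell, beside 0.777% and 0.460% of all genes. The list also held CPS1, which takes free ammonia instead and was at −0.11. The list median was −0.025. CAD carries the first 3 activities of pyrimidine synthesis, beginning with carbamoyl phosphate made from glutamine. The implantation arrays read 6.43, 6.41 and 6.34 and the interimplantation arrays 5.68, 5.93 and 5.93. Every implantation array was above every interimplantation array, with a 1.46-fold difference (log2 0.55 ± 0.09 SE, limma adjusted p = 0.00781). CAD has 1 probe set and passed with any 1 array left out (adjusted p up to 0.0409). GMPS, the glutamine-dependent step to GMP, and GFPT1, which starts hexosamine synthesis, were at 0.30 ± 0.09 SE and 0.21 ± 0.09 SE and did not pass (adjusted p = 0.185 and 0.437). CTPS1, CTPS2, PPAT and PFAS, other glutamine users of nucleotide synthesis, were at 0.14, −0.020, −0.052 and −0.030.

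The list of the urea cycle, arginine use and nitric oxide had 0 of 14 measured genes past the threshold in limma's test and 0 at an unadjusted p under 0.05, with differences from −0.11 to 0.16. SLC25A15, the mitochondrial ornithine carrier, had the smallest p (difference 0.16 ± 0.09 SE, limma adjusted p = 0.580). The nitric oxide synthases NOS1, NOS2 and NOS3 were at 0.11, 0.069 and −0.010, and ODC1, which starts polyamine synthesis from ornithine, was at −0.060. OTC and CPS1, which feed citrulline to ASS1 in liver and gut, were at −0.087 and −0.11. The difference of ASS1 given above, 0.47, lies beyond this range; it was chosen for its size, and the contrast with the list was not tested.

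Aspartate and serine supply had 0 of 11 measured genes past the threshold in limma's test, with GOT1 as the 1 gene higher at an unadjusted p under 0.05 and 0 lower. SHMT2, which makes glycine from serine in mitochondria, was at 0.058 at its brightest probe set and at 0.41 ± 0.07 SE at the dimmer 214095_at (limma adjusted p = 0.0226 over probe sets), with 0.29 ± 0.09 SE at 214437_s_at; it was singled out after its values were seen.

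Among 27 measured amino acid carriers 0 passed in limma's test, with 1 higher and 2 lower by an unadjusted p under 0.05 and a median difference of −0.018. SLC43A1, a carrier of large neutral amino acids, had the smallest p (−0.22 ± 0.08 SE, limma adjusted p = 0.267). SLC38A1 and SLC38A2, sodium-coupled glutamine carriers, were at −0.19 ± 0.09 SE and −0.16 ± 0.08 SE. Of the 27 carriers, 11 had a difference above 0. The largest was that of SLC7A9 (0.30 ± 0.11 SE, limma adjusted p = 0.274, groups overlapping). SLC7A7 was at 0.16 ± 0.07 SE and higher in every implantation array. SLC7A5 and its partner SLC3A2, which exchange glutamine for leucine, were at −0.021 and −0.0093.

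The amino acid response, in which the transcription factor ATF4 switches on genes such as ASNS when amino acids run short, had 0 of 28 measured genes past the threshold in limma's test. At an unadjusted p under 0.05, 1 was higher and 4 were lower, beside 5.68% and 5.22% of all genes. The median was −0.0081. GARS1, the glycyl-tRNA synthetase, had the smallest p (0.26 ± 0.07 SE, limma adjusted p = 0.160). ATF4 itself was at 0.057 ± 0.07 SE, and its targets TRIB3, CHAC1 and DDIT3 at −0.11, −0.095 and 0.065. NUPR1, a stress-induced chromatin protein, and VLDLR, a lipoprotein receptor, were both at −0.40 ± 0.12 SE (limma adjusted p = 0.187 and 0.191), values singled out after they were seen.

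Of 17 measured tRNA synthetases and their scaffold proteins, KARS1 and RARS1 rose and 0 fell, beside 0.777% and 0.460% of all genes. At an unadjusted p under 0.05 in limma's test, 6 were higher and 0 lower, beside 5.68% and 5.22% of all genes. The median difference was 0.10. RARS1, which loads arginine onto its tRNA, read 5.53, 5.05 and 5.31 at implantation sites and 4.78, 4.73 and 4.75 at interimplantation sites (0.54 ± 0.11 SE, limma adjusted p = 0.0331). KARS1, which loads lysine, read 6.05, 6.01 and 6.09 against 5.54, 5.75 and 5.42 (0.48 ± 0.09 SE, limma adjusted p = 0.0255). Neither overlapped between groups. Both calls were fragile: without single arrays, RARS1 missed the threshold without any array but implantation site 2 (adjusted p up to 0.127, without interimplantation site 3), and KARS1 without any array but interimplantation site 2 (up to 0.115, without implantation site 3). The dimmer probe set of KARS1, 200840_at, was at −0.014 ± 0.07 SE.

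EPRS1, which loads glutamate and proline, had the largest difference of that list (0.61 ± 0.17 SE, limma adjusted p = 0.127) and did not pass. Interimplantation site 1 read 5.48, close to the implantation arrays at 5.59, 5.50 and 5.64, while the other 2 interimplantation arrays read 4.76 and 4.67. Its other 2 probe sets gave 0.50 ± 0.09 SE (200842_s_at, limma adjusted p = 0.0192 over probe sets) and 0.21 ± 0.10 SE (200843_s_at, limma adjusted p = 0.531, groups overlapping).

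**Figure D5:**
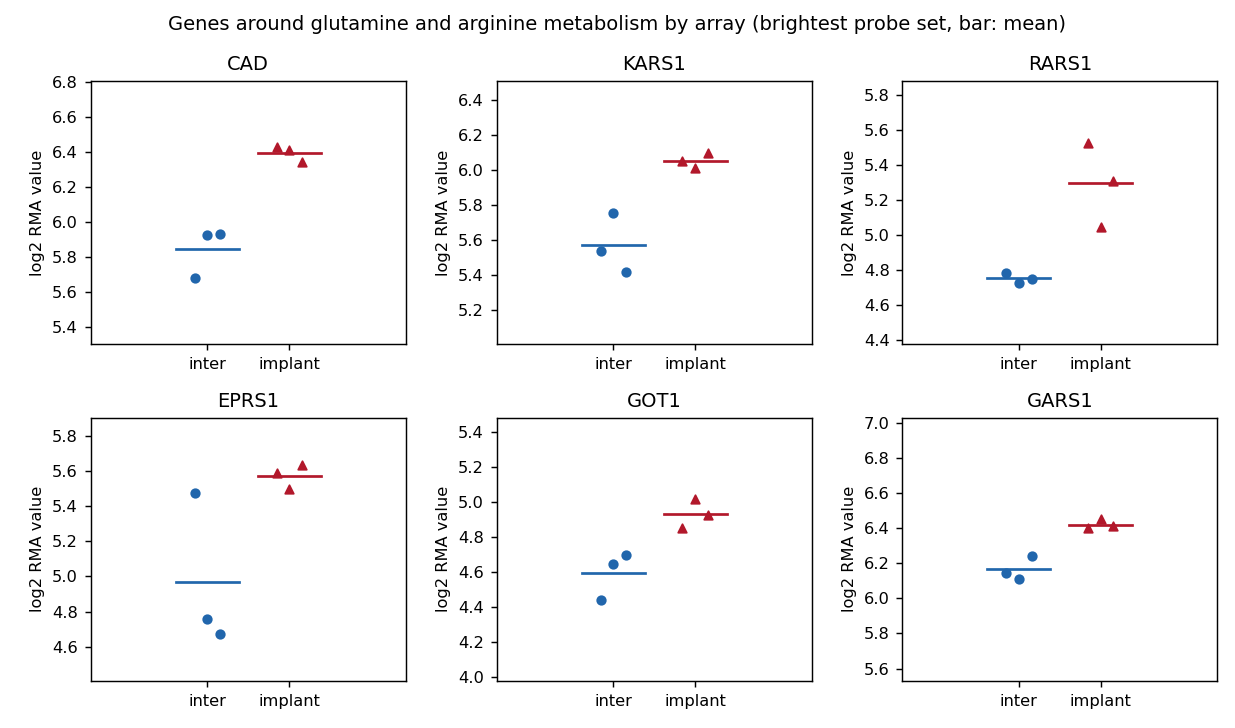
Log2 RMA values (vertical axes) of 6 genes at their brightest probe set in the 3 interimplantation arrays (circles, "inter") and 3 implantation arrays (triangles, "implant"), with bars at the group means. CAD, KARS1 and RARS1 passed the adjusted threshold; EPRS1 has 1 interimplantation array at 5.48, near the implantation arrays.

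Genes by which mTORC1 senses amino acids had 0 of 18 measured members past the threshold in limma's test. By an unadjusted p under 0.05, 3 were higher and 0 lower, beside 5.68% and 5.22% of all genes. RPS6KB1, the S6 kinase that mTORC1 activates, had the smallest p (0.36 ± 0.09 SE, limma adjusted p = 0.0731; 0.13 ± 0.09 SE at its dimmer probe set). The other 2 were RRAGA, a GTPase that recruits mTORC1 to the lysosome, and LAMTOR2, part of its lysosomal anchor, at 0.21 ± 0.08 SE and 0.19 ± 0.09 SE. MTOR itself was at 0.026 ± 0.10 SE.

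Markers of tissue composition and RNA quality were set beside these values, and their part in the differences was not tested. Beside all marker counts, 0.777% of all genes were called higher in limma's test and 0.460% lower. By an unadjusted p under 0.05 the shares were 5.68% and 5.22%. Of 5 measured genes of uterine identity, WT1 (7.24 and 6.50 at implantation and interimplantation sites), HAND2 and ESR1 were above the median brightness of 4.19, while PGR and EMX2 were dim. WT1 rose (0.74 ± 0.13 SE, limma adjusted p = 0.0141; −0.018 at its dimmer probe set) and 0 of them fell, and their mean level ran from 4.84 to 4.89 and from 4.64 to 4.71. The mean level of 11 smooth muscle markers ran from 5.07 to 5.11 in implantation arrays and from 5.23 to 5.40 in interimplantation arrays. Past the threshold, 0 of these markers were higher and 3 lower (ACTG2, TAGLN and MYLK, at −0.80, −0.56 and −0.53). The markers did not move together: their median difference was −0.016 and 4 lay above 0. Among those 4, ACTA2 was higher in every implantation array (0.15). Epithelial markers (12 measured, 0 called in either direction; 0 higher and 3 lower by an unadjusted p under 0.05) ran from 4.35 to 4.43 and from 4.48 to 4.51. Endothelial markers (10 measured, 0 called, 0 at an unadjusted p under 0.05) ran from 4.18 to 4.20 and from 4.24 to 4.31. Erythroid markers (4 measured, 0 called, 1 lower by an unadjusted p under 0.05) ran from 5.92 to 5.995 and from 6.03 to 6.06. The mean levels of the muscle, epithelial, endothelial and erythroid lists were thus lower in every implantation array. That of uterine identity was higher in every one, though its median difference was 0.13 beside 0.74 for WT1. Whether these levels bear on GLUL or ASS1 was not tested.

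Of 11 stromal markers, FBLN1 and COL1A1 rose (0.92 and 0.56) and PDGFRA fell (−0.66) at their brightest probe sets. Their dimmer probe sets differed less: from −0.10 to 0.20 for FBLN1, 0.055 to 0.27 for COL1A1, and −0.058 and −0.080 for PDGFRA. Of 13 macrophage and neutrophil markers, 0 rose and SPI1 fell (−0.49), and their mean level ran from 4.01 to 4.08 and from 4.06 to 4.11, beside the ARG1 values above. The mean levels of stromal, decidual, lymphocyte and trophoblast markers also overlapped between groups; of the last 3 lists 0 markers were called, and 0 had an unadjusted p under 0.05. RMA values have no zero, so no marker could be called absent. The actin control signal from the 3′ end minus that from the 5′ end was −2.08 ± 0.22 in implantation and −1.70 ± 0.15 in interimplantation arrays (log2, SD, n = 3 each), and the 2 groups did not overlap. The same measure for GAPDH was −0.20 ± 0.16 and 0.13 ± 0.17, and there the groups overlapped. Both controls carry human probes, so these values also depend on how well each end matches the hamster transcript. They do not measure RNA quality alone.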

How the data were processed

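In all, 6 arrays carrying human probe sets were hybridised with hamster RNA. The deposited values are summarised log2 brightness of each probe set, for which the submitters' processing notes name RMA (background correction, normalization between arrays and summary over probes) and Partek 6.6; settings and log base were not stated, and values from 1.65 to 12.1 were read as log2. Array medians were 4.18 to 4.20. Control probe sets (68) were left out, and symbols came from the platform annotation. A gene was read at its probe set with the highest mean. The comparison used R 4.3.3 and limma 3.58.1 (lmFit, eBayes, two-sided, no covariate; Benjamini-Hochberg over 11963 genes or 22215 probe sets, threshold 0.05), tested on simulated data. The members and lists were chosen with earlier results of these data known. Members were named at all probe sets, list genes where they passed (otherwise the smallest p), and 3 nearest genes for each of GLUL and ASS1; all other names were chosen after their values were seen. Same-numbered arrays did not deviate together (correlations 0.054, −0.0025 and 0.070). The number of arrays limits the precision.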

Additional observations from a re-analysis of the deposited data

How the results depend on the processing

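Differences of GLUL and ASS1 were recomputed under 12 other settings and with each of the 6 arrays left out (ranges −0.99 to −0.69 for GLUL and 0.45 to 0.49 for ASS1). GLUL moved by more than its spread between replicates with the mean of its probe sets (−0.41), where 1 member (ASS1) passed; without _s_at and _x_at probe sets 0 passed, since neither gene has a probe set there. Of the list genes, 1 was higher (CAD) when probe sets were averaged, and 1 to 2 were with arrays left out (1 without implantation site 1, implantation site 3 or interimplantation site 3). The higher count rose to 4 with the most variable probe set (SHMT2 added) and with array weights (EPRS1 added). Without _s_at and _x_at probe sets it stayed at 3, with SHMT2 in place of KARS1. The lower count of 0 became 1 under the replicate block (VLDLR) and with array weights (NUPR1), and 0 to 1 with arrays left out. The block kept the calls of CAD, KARS1 and RARS1. GLUL and ASS1 also passed there, but they were chosen from this comparison, so that is a description only. KARS1 was at −0.014 without _s_at and _x_at probe sets, which leaves its dimmer one, and at 0.23 (adjusted p = 0.175) with the mean; RARS1 missed the threshold with the mean (0.0506) at an unchanged difference. Brightness over the hybridisation background, with human probes on hamster RNA, limits what a small difference shows.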

Other observations

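ATIC, the purine enzyme nearest to ASS1 in profile, led to a list of other nucleotide synthesis genes, chosen after its value was seen and therefore given without a test. ATIC itself is not in that list. Of 15 such genes 13 were measured, and at the brightest probe set 12 of them had a difference above 0 and 8 were higher in every implantation array, beside 8.36% of all genes. The median difference was 0.25, beside −0.0069 over all genes. Purine enzymes included ADSL (0.38 ± 0.09 SE), PAICS (0.32 ± 0.09 SE) and IMPDH2 (0.25 ± 0.08 SE), while GART was at 0.12 ± 0.09 SE. The 2 subunits of ribonucleotide reductase, RRM1 (0.50 ± 0.11 SE) and RRM2 (0.28 ± 0.08 SE), were higher in every implantation array at the brightest probe set, but were at −0.074 and 0.016 at their other one, where the groups overlapped. DHODH, the mitochondrial step of pyrimidine synthesis that follows CAD, was at 0.24, 0.12 and −0.16 at its 3 probe sets, and UMPS, the step after it, at −0.022, 0.16 and 0.17. PAICS was at −0.14 and 0.021 at its other 2 probe sets, and the 5 probe sets of GART ran from −0.15 to 0.21.

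Mitochondrial tRNA synthetases, also listed afterwards and given without a test, had a median difference of 0.0082 over 10 measured genes. NARS2 was at 0.26 ± 0.08 SE, SARS2 at −0.21 ± 0.07 SE and RARS2, the mitochondrial counterpart of RARS1, at 0.045 ± 0.08 SE (−0.080 at its dimmer probe set).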
